A study of Homo sapiens with 12 samples.

Results

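The nuclear respiratory chain subunits are the proteins of mitochondrial complexes I to V that are encoded in the nucleus rather than in mitochondrial DNA. They were chosen by gene symbol alone: NDUFA, NDUFB, NDUFC, NDUFS or NDUFV with a digit, SDHA to SDHD, UQCR, COX4 to COX8 and ATP5, without pseudogenes and hyphenated symbols. Of 92 candidate symbols 6 were left out, which gave 86 genes of the 44786 gene symbols in the expression matrix of U937 cells. Complex I held 36 of them, complex II 4, complex III 9, complex IV 19 and complex V 18. NDUFA4 and NDUFA4L2 were placed with complex IV, and ATP5S and ATP5SL were kept for their symbols although they are not subunits of the ATP synthase.

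U937 is a human myelomonocytic leukemia cell line, and total RNA depleted of ribosomal RNA was sequenced from 12 libraries in 4 groups of 3. All groups were labelled as grown in RPMI with 20% FCS and 5 ng/ml GM-CSF. The untreated group was labelled 96 h, and the other groups 72 h and 3 days of treatment: 200 nM decitabine (DAC, a cytosine analogue that traps DNA methyltransferases), 1 µM all-trans retinoic acid (ATRA, a ligand of the retinoic acid receptors), or both (DAC+ATRA). The methods text of the study instead has ATRA added later than DAC, less serum, and the same harvest time for all cultures, and in comparisons with untreated cells an effect of the labelled time cannot be told apart from an effect of treatment. The treated groups share 1 labelled time. The series calls the replicates technical triplicates, so every p-value below measures only the spread between these samples.

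The respiratory chain passes electrons from NADH (through complex I) and succinate (through complex II) by way of ubiquinone, complex III and cytochrome c to oxygen at complex IV, and complex V uses the resulting proton gradient to make ATP. Complex II is built from nuclear genes only, whereas the other complexes combine many nuclear subunits with a few encoded by mitochondrial DNA. Myeloid leukemia cells are known to rely on oxidative phosphorylation, and many nuclear subunit genes have promoters that bind NRF1, ETS factors such as GABPA, YY1 and SP1.

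Between 8042435 and 10683593 reads were counted per library, and the deposited values are reads per transcript divided by a size factor for each library (normalized reads). At this depth 3 reads in a library equal 2.50 to 3.71 normalized reads, which is also the most that a count of 0 allows there. The 86 members together took 0.311% to 0.408% of the reads of a library. Their sum was 36017, 36881 and 35556 normalized reads in the untreated libraries (numbered 1 to 3), 35554, 31541 and 34054 with DAC (4 to 6), 38114, 39046 and 30824 with ATRA (7 to 9) and 30910, 32516 and 31470 with DAC+ATRA (10 to 12). Within the ATRA group, library 9 lay apart from the others: it had the largest size factor of the 12, 1.20, and a member sum below those of libraries 7 and 8 by more than the whole range of the untreated group. In bulk RNA, fewer cells of a type and less RNA per cell cannot be told apart.

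The labelled cell type was checked against 10 myeloid markers. MPO, the peroxidase of myeloid granules, averaged 52578 normalized reads in untreated cells and the surface protein CD33 848, whereas SPI1 and LYZ were lower at 130.04 and 164. In treated libraries MPO was at 20236 to 32650.4 (DAC), 26514 to 37782.5 (ATRA) and 14274 to 15535 (DAC+ATRA), and LYZ at 641 to 941, 142 to 214 and 954 to 1178. PTPRC, with 28 rows, and PRTN3 were listed at 0 in all 12 libraries. AZU1, ELANE, CD68 and CSF1R averaged 0.308, 3.37, 0.306 and 0.611 in untreated cells. Such low values do not show that a gene is silent, since its reads may be assigned to no row. Markers of other cell types, 8 in all, summed to 23.9 to 27.3 in untreated libraries, 230 to 294 with DAC, 52.4 to 60.1 with ATRA and 145 to 175 with DAC+ATRA. COL1A1 was the most abundant of them, HBG1 and ALB were at 0, and the part of these marker levels in the results for the members was not tested.

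What a value measures here differs between members, because each row of the matrix is a transcript and not a gene. The 86 symbols held 700 rows, and each gene was represented by its row with the highest mean over the 12 libraries. By the GENCODE 44 annotation this row was a protein-coding transcript for 46 members, a transcript with a retained intron for 27, a transcript without a defined coding sequence for 9 and a target of nonsense-mediated decay for 2, and 2 were not matched. The coding rows carried 94.3% of all member values and the retained-intron rows 4.64%. UQCRFS1, NDUFA1 and COX8A alone held 70.2%, and 6 members had a single row. Bases found in no other annotated transcript numbered 503.5 in the median tested row, but the counting mode and strand setting of the deposited counts are not stated. Tests therefore compare groups for the same row, and where rows are ranked or summed over genes the numbers describe counted reads and not expression of the genes.

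Of the 86 members, 66 reached 10 normalized reads in at least 3 libraries and were tested. The other 20 were left out of the main fit. NDUFA6, NDUFS5, COX6A2, COX7B2 and COX8C had no read in any library, and those with too few included NDUFA3, NDUFA7, NDUFA12, NDUFB7, NDUFB10, NDUFC2, NDUFS4, SDHB, UQCR10, COX4I2, COX6B2, COX7A1, COX7A2L and ATP5L2. A low value of such a row does not show that the gene is silent, since reads of the same gene may sit on other rows or be assigned to none.

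Promoter sequence from RefSeq (GRCh38.p14), 300 bases around the annotated gene start, was found by symbol for 67 members with 80 promoters, and 19 members had no entry. Letters of 4 motifs were searched on both strands in these and in all 35116 promoters. The NRF1 core GCATGCGC was present in 15 of 80 member promoters (18.8%) and in 3.05% of all promoters. The ETS motif CCGGAAG was present in 21 (26.3%, against 10.3% of all), the YY1 motif AAGATGGC in 13 (16.3%, against 2.89%) and the SP1 motif GGGCGG in 48 (60%, against 44.95% of all). The median member promoter had 21 CpG dinucleotides and the median of all promoters 14. A match describes letters and not a bound site, and the window belongs to the gene start, which for a retained-intron row need not be the start of the counted transcript.

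The promoters below belong to the members on which the results turn, with all matched letters in capitals on either strand and all sequences written 5′ to 3′ on the strand of the gene. The first pair, of UQCRC1 (chr3:48609597-48609896, minus strand) and COX4I1 (chr16:85799445-85799744, plus strand), is shown because their rows fell with DAC in every setting in which they were tested. UQCRC1 has a YY1 and an SP1 match, and COX4I1 an ETS and 2 SP1 matches.
UQCRC1: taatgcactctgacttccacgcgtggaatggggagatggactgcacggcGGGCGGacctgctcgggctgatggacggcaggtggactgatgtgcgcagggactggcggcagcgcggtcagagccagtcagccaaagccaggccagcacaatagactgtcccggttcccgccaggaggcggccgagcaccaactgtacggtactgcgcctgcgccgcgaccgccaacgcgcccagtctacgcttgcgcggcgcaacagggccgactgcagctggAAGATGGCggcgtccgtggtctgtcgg
COX4I1: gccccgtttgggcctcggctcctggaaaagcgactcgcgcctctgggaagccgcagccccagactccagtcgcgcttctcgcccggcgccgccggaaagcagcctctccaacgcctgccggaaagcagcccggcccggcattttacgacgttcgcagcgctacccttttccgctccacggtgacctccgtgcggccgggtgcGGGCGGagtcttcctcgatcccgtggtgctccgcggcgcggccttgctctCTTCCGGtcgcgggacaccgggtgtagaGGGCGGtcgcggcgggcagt

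SDHD (chr11:112086623-112086922, plus strand) and UQCRFS1 (chr19:29213102-29213401, minus strand) are shown because their coding transcripts fell, with DAC and with DAC+ATRA respectively. The NRF1 core reads nearly the same on both strands, so that the single stretch of capitals in SDHD counts as 2 overlapping matches, and an ETS match follows it. UQCRFS1 has 2 SP1 matches. ETS and YY1 letters can also overlap in other promoters, by AAG.
SDHD: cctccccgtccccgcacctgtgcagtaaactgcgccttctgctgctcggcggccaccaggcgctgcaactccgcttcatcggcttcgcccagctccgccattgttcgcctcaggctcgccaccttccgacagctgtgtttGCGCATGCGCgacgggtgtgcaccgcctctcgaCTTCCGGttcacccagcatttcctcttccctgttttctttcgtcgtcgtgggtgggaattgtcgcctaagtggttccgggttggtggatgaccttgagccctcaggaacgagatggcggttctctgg
UQCRFS1: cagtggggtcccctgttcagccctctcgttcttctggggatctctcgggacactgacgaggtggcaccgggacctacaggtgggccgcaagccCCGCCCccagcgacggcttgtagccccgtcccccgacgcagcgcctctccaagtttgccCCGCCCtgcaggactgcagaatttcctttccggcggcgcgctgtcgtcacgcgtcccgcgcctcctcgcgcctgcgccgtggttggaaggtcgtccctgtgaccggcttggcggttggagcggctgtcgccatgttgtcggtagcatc

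NDUFB11 (chrX:47144653-47144952, minus strand) and NDUFA8 (chr9:122159730-122160029, minus strand) are shown because their coding transcripts rose. NDUFB11 has a single SP1 match, whereas NDUFA8 has an SP1 match and the same overlapping pair of NRF1 matches as SDHD.
NDUFB11: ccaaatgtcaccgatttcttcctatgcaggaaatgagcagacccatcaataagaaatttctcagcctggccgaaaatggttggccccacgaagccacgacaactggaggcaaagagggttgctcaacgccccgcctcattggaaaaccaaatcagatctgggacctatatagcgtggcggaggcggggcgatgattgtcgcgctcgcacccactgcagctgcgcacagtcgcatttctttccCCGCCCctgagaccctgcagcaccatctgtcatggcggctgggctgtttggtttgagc
NDUFA8: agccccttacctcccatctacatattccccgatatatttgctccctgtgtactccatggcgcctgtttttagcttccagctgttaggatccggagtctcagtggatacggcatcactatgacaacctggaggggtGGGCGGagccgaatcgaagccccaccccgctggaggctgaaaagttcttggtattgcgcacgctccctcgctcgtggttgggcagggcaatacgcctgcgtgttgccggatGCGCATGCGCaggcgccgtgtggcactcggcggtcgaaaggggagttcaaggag

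COX6B1 (chr19:35648073-35648372, plus strand) and COX6B2 (chr19:55354670-55354969, minus strand) are the widely used and the testis isoform of a complex IV subunit. They are shown because reads on the counted row of COX6B2 appeared only in cells given DAC. COX6B1 has an ETS match and 16 CpG dinucleotides, and COX6B2 an SP1 match and 31.
COX6B1: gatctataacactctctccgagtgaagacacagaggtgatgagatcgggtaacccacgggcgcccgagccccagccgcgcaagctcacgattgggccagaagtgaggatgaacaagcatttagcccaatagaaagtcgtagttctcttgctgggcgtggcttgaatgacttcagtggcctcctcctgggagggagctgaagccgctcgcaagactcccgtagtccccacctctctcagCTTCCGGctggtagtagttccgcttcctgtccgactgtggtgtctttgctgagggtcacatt
COX6B2: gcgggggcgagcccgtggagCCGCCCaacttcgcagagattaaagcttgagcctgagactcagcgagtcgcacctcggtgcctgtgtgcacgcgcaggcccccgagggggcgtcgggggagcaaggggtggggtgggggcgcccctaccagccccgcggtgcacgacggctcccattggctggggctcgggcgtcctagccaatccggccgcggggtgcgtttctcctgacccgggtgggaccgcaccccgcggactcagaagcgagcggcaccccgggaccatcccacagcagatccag

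Each treatment was first compared with untreated cells, to see how DAC, ATRA and their combination change the transcriptome. The threshold was an adjusted p under 0.01 from limma with Benjamini-Hochberg adjustment over all 9045 transcripts tested, and the 3 comparisons share the untreated libraries. With DAC, 18 of the 66 tested members were lower and 2 were higher, beside 8.82% lower and 30.6% higher among all transcripts tested. With DAC+ATRA, 21 were lower and 3 higher, beside 14.3% and 32.5%. With ATRA alone limma called 0 members lower and 0 higher, beside 2.66% and 6.45%. At an unadjusted p under 0.05 these were 4 lower and 2 higher with ATRA, the smallest adjusted p was 0.0138 (limma, Benjamini-Hochberg), and edgeR and DESeq2 also called 0 in either direction. So under DAC the member rows held a larger share of lower calls and a smaller share of higher calls than all tested transcripts did. The other tested transcripts are annotated as protein-coding or, where not matched to the annotation, carry the symbol of a protein-coding gene. Of the 66 member rows 31 are not annotated as coding. With the most abundant coding row of each member, which left 43 members tested, 6 were lower with DAC and 9 with DAC+ATRA, and among all coding rows of the member symbols 11.3% were lower with DAC, beside 8.73% of all coding transcripts.

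The median log2 fold change of the members was -0.38 (DAC), -0.07 (ATRA) and -0.42 (DAC+ATRA), while that of all tested transcripts was 0.22, 0.00 and 0.20. The median of all transcripts depends on the scaling of the libraries: with edgeR's TMM, DESeq2 on the recovered reads, library size or size factors from protein-coding transcripts it dropped to between 0.02 and 0.09 with DAC and between 0.05 and 0.06 with DAC+ATRA. Relative to the median of all transcripts the members were at -0.60 (DAC), -0.07 (ATRA) and -0.62 (DAC+ATRA). Under the other 4 scalings this difference ran from -0.58 to -0.62 with DAC and from -0.60 to -0.61 with DAC+ATRA. The split of all calls moved too: higher calls were 77.6% of all calls with DAC under the deposited size factors and 58.8% to 65.2% under the other scalings, 69.5% and 58.5% to 59.4% with DAC+ATRA, and 70.8% and 54.8% to 64.1% with ATRA. The count of lower members grew under these scalings, to 26 to 30 with DAC and 27 with DAC+ATRA. Lower calls among all transcripts grew as well, from 798 to between 1314 and 1611 with DAC. With DAC+ATRA they grew from 1290 to between 1734 and 1843. The edgeR and DESeq2 settings changed the test as well as the scaling. Without the filter on low values the count of lower members was 12 with DAC, where ATP5S, NDUFA5, NDUFV1, ATP5G1, ATP5O and COX7A2 were lost. It was 16 with DAC+ATRA, where ATP5S, NDUFS1, NDUFB9, NDUFA5 and NDUFB8 were lost. It shrank when single libraries were left out, to 11 with DAC without untreated library 1 or without untreated library 2. The count of higher members with DAC was 1 under all 4 scalings and without 9 of the 12 libraries, and that with DAC+ATRA was 1 without untreated library 2 or 3 or DAC+ATRA library 12.

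**Figure D1:**
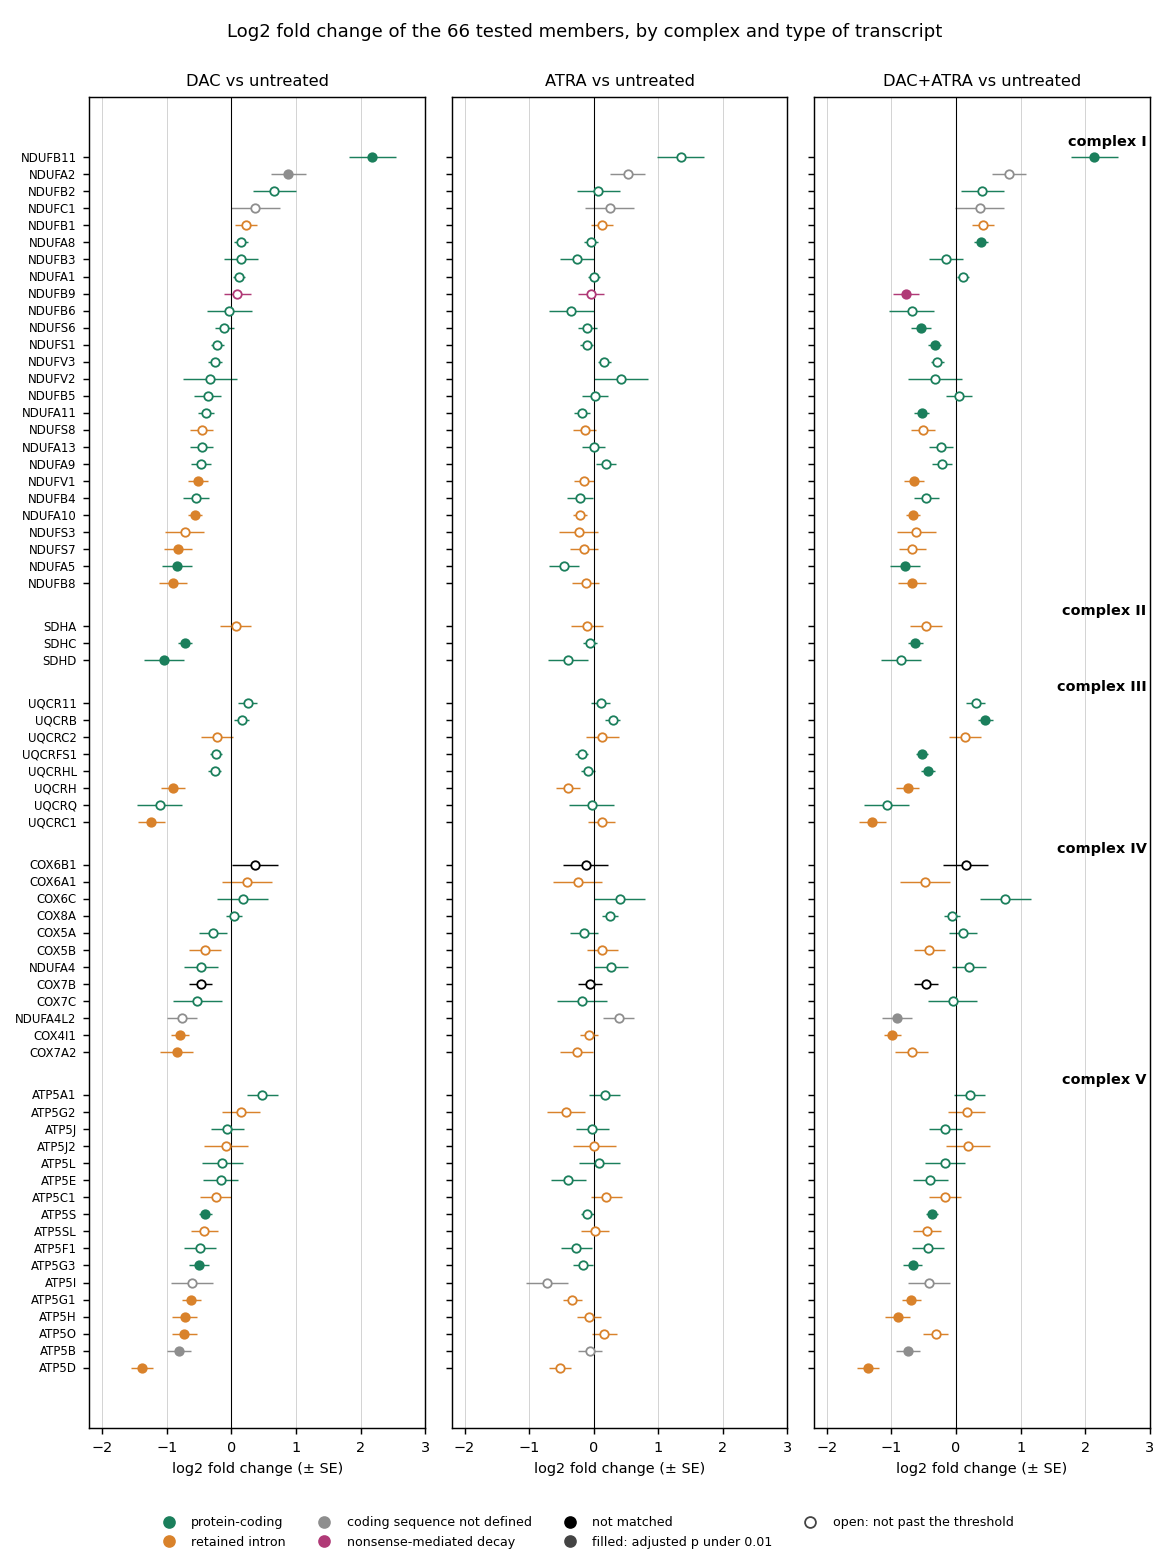
Log2 fold change (x axis, with its standard error) of the 66 tested members (y axis, grouped by complex) with DAC, ATRA and DAC+ATRA against untreated cells; filled points passed the threshold and colors give the type of transcript. Filled points lie mostly left of 0 in the DAC and DAC+ATRA panels, with 18 and 21 lower members, and none is filled in the ATRA panel.

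Complex I accepts electrons from NADH, and 16 of its 26 tested rows are coding transcripts. With DAC 5 of its 26 tested members were lower and 2 higher, beside 8.82% and 30.6% of all transcripts tested, and with DAC+ATRA 8 and 2, beside 14.3% and 32.5%. The median log2 fold changes of the complex were -0.29 (DAC), -0.07 (ATRA) and -0.33 (DAC+ATRA), or -0.51, -0.07 and -0.53 relative to all transcripts. The 6 tested core subunits, which carry the electron path, had a median of -0.49 with DAC and all 6 were below 0, and the 20 tested accessory subunits had a median of -0.07 with 11 below 0. This difference between core and accessory subunits was not tested, and 4 of the 6 core rows were retained-intron transcripts.

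NDUFS1 is the largest core subunit and carries iron-sulfur clusters, and its row is a coding transcript. Its normalized reads were 1384, 1212 and 1169 in the untreated libraries, 1151, 1083 and 995 under DAC, 1251, 1143 and 1101 under ATRA and 968, 1049.5 and 966 under the combination. Every DAC+ATRA library and every DAC library was below every untreated library, and the ATRA libraries overlapped with the untreated ones. The log2 fold change was -0.33 (SE 0.10, adjusted p 0.00795) with DAC+ATRA and -0.22 (SE 0.10, adjusted p 0.0746) with DAC, both by limma with Benjamini-Hochberg adjustment. Only the first passed the threshold, and it did not without the filter on low values or without untreated library 1, 2 or 3 or DAC+ATRA library 10, 11 or 12 (adjusted p 0.0102 to 0.0569) by limma with Benjamini-Hochberg adjustment. The second passed under the other 4 scalings, with values for NDUFS1, DAC vs untreated, from -0.35 to -0.42.

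NDUFV1 binds NADH and the flavin at the entry of the electron path, and its most abundant row retains an intron. It had normalized reads of 170.03, 167 and 162 in the untreated libraries, 135, 95.5 and 122 under DAC, 155, 166 and 132 under ATRA and 121, 105 and 92.7 under the combination. The 6 libraries given DAC lay below the 3 untreated libraries without overlap. NDUFV1 changed by -0.51 (SE 0.16, adjusted p 0.00927) with DAC and -0.65 (SE 0.16, adjusted p 0.00135) with DAC+ATRA (limma, Benjamini-Hochberg). In the same test the call with DAC was lost without untreated library 1, 2 or 3, DAC library 5 or 6, ATRA library 7 or DAC+ATRA library 11 (adjusted p 0.0108 to 0.0641), and that with DAC+ATRA without DAC+ATRA library 12 (adjusted p 0.0112), again limma with Benjamini-Hochberg adjustment.

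Among the accessory subunits, NDUFA1, a small membrane subunit, had the most reads of complex I, with 7574, 7631 and 7428 in the untreated libraries, 8499.6, 7772 and 8371 under DAC, 7989.6, 8410.2 and 6523 under ATRA and 7748, 8355 and 8354 under the combination. All libraries given DAC were slightly above the untreated ones, and ATRA library 9 was the lowest of the 12. It passed in no comparison: the log2 fold change was 0.12 (SE 0.09, adjusted p 0.288) with DAC and 0.11 (SE 0.09, adjusted p 0.321) with DAC+ATRA by limma with Benjamini-Hochberg adjustment, and both changed sign under other scalings, to as low as -0.08 and -0.04.

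NDUFB11, an accessory subunit of the membrane arm, had the largest rise of the 66 tested members, from a low level: 2.76, 3.64 and 3.69 in the untreated libraries, 16.2, 25.3 and 15.9 under DAC, 11.6, 14.6 and 5.83 under ATRA and 14.5, 15.8 and 25.95 under the combination. All 9 treated libraries were above the 3 untreated ones. The row passed the filter through its treated libraries only, and members as low in untreated cells that did not reach 10 normalized reads in 3 treated libraries were left out of this ranking. In limma with Benjamini-Hochberg adjustment the log2 fold change was 2.18 (SE 0.36, adjusted p 3.70e-05) with DAC and 2.14 (SE 0.36, adjusted p 3.73e-05) with DAC+ATRA, or 1.96 and 1.94 above the median of all transcripts, and both passed whichever library was left out. With ATRA it was 1.34 (SE 0.36, adjusted p 0.0138), which missed the threshold, but it was 1.69 with an adjusted p of 0.00243 (limma, Benjamini-Hochberg) without ATRA library 9. Only 7 bases of this transcript (ENST00000377811, chrX:47142216-47144702, minus strand) are found in no other annotated transcript, and how reads shared with other rows were counted is not stated.

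NDUFA8, an accessory subunit on the side of the intermembrane space, has a single row in the matrix. Its normalized reads were 1883, 1839 and 1737 in the untreated libraries, 2115, 1996 and 1950.2 under DAC, 2022, 1886 and 1462 under ATRA and 2229, 2518 and 2426 under the combination. The 3 DAC+ATRA libraries were the highest of the 12, and the ATRA libraries overlapped with the untreated ones. Under the combination it changed by 0.39 (SE 0.11, adjusted p 0.00415) by limma with Benjamini-Hochberg adjustment, which is 0.19 above the median of all transcripts, and from 0.24 to 0.39 over 5 scalings, in all of which it passed. That call was lost without untreated library 2 or 3 or DAC+ATRA library 11 or 12 (adjusted p 0.0136 to 0.0240) in limma with Benjamini-Hochberg adjustment. NDUFA2, another accessory subunit, was the second member higher with DAC, with normalized reads of 22.98, 18.2 and 12.01 in the untreated libraries, 28.1, 34.1 and 35.9 under DAC, 28.5, 31.9 and 17.5 under ATRA and 31.6, 29.5 and 32.1 under the combination on a row without a defined coding sequence. The DAC libraries were above the untreated ones without overlap. Its log2 fold change was 0.88 (SE 0.27, adjusted p 0.00952) by limma with Benjamini-Hochberg adjustment, and it passed under 1 of 5 scalings and in 3 of 12 omissions of a library. It was lost without untreated library 2 or 3, DAC library 4, 5 or 6, ATRA library 7 or DAC+ATRA library 10, 11 or 12 (adjusted p 0.0112 to 0.0695), by limma with Benjamini-Hochberg adjustment.

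The 2 largest falls in complex I with DAC were those of accessory subunits. NDUFB8, on a retained-intron row, had normalized reads of 47.8, 50.98 and 50.8 in the untreated libraries, 33.5, 22.4 and 23.9 under DAC, 42.2, 40.96 and 54.9 under ATRA and 33.5, 31.6 and 27.2 under the combination. NDUFA5, on a coding row, had 45.03, 53.7 and 49.9 in the untreated libraries, 21.6, 31.2 and 29.9 under DAC, 43.3, 37.3 and 28.3 under ATRA and 33.5, 22.1 and 29.7 under the combination. For both genes the 6 libraries given DAC were below the 3 untreated ones. NDUFB8 changed by -0.90 (SE 0.21, adjusted p 0.00138) with DAC and -0.68 (SE 0.21, adjusted p 0.00950) with DAC+ATRA (limma, Benjamini-Hochberg). NDUFA5 changed by -0.84 (SE 0.23, adjusted p 0.00513) and -0.80 (SE 0.23, adjusted p 0.00621) in these comparisons (limma, Benjamini-Hochberg). Leaving out a library never took the DAC call from NDUFB8, with log2 fold changes of -1.07 to -0.79, whereas its DAC+ATRA call was lost without untreated library 1, 2 or 3, ATRA library 7 or 8 or DAC+ATRA library 10, 11 or 12 (adjusted p 0.0109 to 0.0416), by limma with Benjamini-Hochberg adjustment. For NDUFA5 the DAC call was lost without untreated library 2 or 3 or DAC library 4 (adjusted p 0.0174 to 0.0301) and the DAC+ATRA call without untreated library 1, 2 or 3 or DAC+ATRA library 11 or 12 (adjusted p 0.0105 to 0.0423) (limma, Benjamini-Hochberg). The other members of complex I past the threshold were NDUFA10 and NDUFS7 with DAC, and NDUFA10, NDUFA11, NDUFB9 and NDUFS6 with DAC+ATRA, all lower. Their log2 fold changes ran from -0.83 for NDUFS7 with DAC to -0.53 for NDUFA11 with DAC+ATRA. The call of NDUFS7 was lost without untreated library 1 or 2 or DAC library 4 or 5 (adjusted p 0.0130 to 0.0148) and that of NDUFS6 without untreated library 1 or 2 or DAC+ATRA library 10 or 12 (adjusted p 0.0142 to 0.0199) (limma, Benjamini-Hochberg). Gained calls were NDUFA11 with DAC without DAC library 6 or ATRA library 7 or 9 (adjusted p 0.00268 to 0.00997), and with DAC+ATRA NDUFS7 without DAC library 6, ATRA library 7 or 9 or DAC+ATRA library 10 (0.00637 to 0.00971) and NDUFA2 without untreated library 1 or ATRA library 9 (0.00608 and 0.00711), by limma with Benjamini-Hochberg adjustment.

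Complex II oxidizes succinate, and 3 of its 4 members were tested. SDHC and SDHD anchor it in the membrane, SDHA carries the flavin and SDHB the iron-sulfur clusters. SDHC, on a coding row, had the most reads, 616, 633 and 593 in the untreated libraries, 432, 361 and 333 under DAC, 610.4, 548 and 613 under ATRA and 383, 389 and 418 under the combination. The 6 libraries given DAC and the 6 others formed separate groups with no overlap. In limma with Benjamini-Hochberg adjustment the log2 fold change was -0.72 (SE 0.11, adjusted p 1.80e-05) with DAC and -0.63 (SE 0.11, adjusted p 6.62e-05) with DAC+ATRA, and both passed under every alternative run and whichever library was left out. Of this transcript, 17 bases are found in no other annotated transcript (ENST00000367975, chr1:161314381-161363206, plus strand).

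SDHD, on a coding row, was more variable, with normalized reads of 68.01, 91.03 and 60.95 in the untreated libraries, 46.5, 41.9 and 20.9 under DAC, 72.9, 60.99 and 36.6 under ATRA and 49.7, 26.3 and 46.96 under the combination. All DAC libraries were below all untreated ones, with DAC library 6 the lowest, and the ATRA libraries overlapped with the untreated ones. The log2 fold change of -1.05 (SE 0.31, adjusted p 0.00925) with DAC passed and -0.86 (SE 0.31, adjusted p 0.0257) with DAC+ATRA did not (limma, Benjamini-Hochberg). This DAC call was lost without untreated library 1, 2 or 3, DAC library 6, ATRA library 8 or DAC+ATRA library 12 (adjusted p 0.0102 to 0.0610), by limma with Benjamini-Hochberg adjustment, and also at 10 normalized reads in every library or a pseudocount of 0.1. The call with DAC+ATRA was gained under the other 4 scalings and without DAC library 6 (adjusted p 0.00923, limma, Benjamini-Hochberg). SDHA, on a retained-intron row, had normalized reads of 27.6, 27.3 and 34.2 in the untreated libraries, 24.9, 33.1 and 35.9 under DAC, 27.5, 24.6 and 30.8 under ATRA and 28.03, 21.1 and 16.1 under the combination. Its groups overlapped in every comparison, and with DAC its log2 fold change was 0.06 (SE 0.25, adjusted p 0.846) by limma with Benjamini-Hochberg adjustment, with a sign that changed under other scalings, to as low as -0.12. SDHB had normalized reads of 9.19, 5.46 and 1.85 in the untreated libraries, 6.49, 3.90 and 4.98 under DAC, 2.11, 9.10 and 9.16 under ATRA and 0.904, 6.32 and 3.71 under the combination on a retained-intron row, too few for the test.

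Complex III passes electrons from ubiquinol to cytochrome c, and 5 of its 8 tested rows are coding transcripts. Among its 8 tested members 2 were lower with DAC, and 4 were lower and 1 higher with DAC+ATRA. Among all transcripts tested 8.82% were lower and 30.6% higher with DAC, and 14.3% and 32.5% with DAC+ATRA. Their median log2 fold change was -0.25, 0.04 and -0.48 with DAC, ATRA and DAC+ATRA, or -0.47, 0.04 and -0.68 relative to all transcripts. UQCRFS1, the Rieske iron-sulfur subunit, has a single row (ENST00000304863, chr19:29205320-29213151, minus strand) and the most reads of any member. It had normalized reads of 10737, 11203 and 10757 in the untreated libraries, 9749, 8823 and 9201 under DAC, 10499, 10233 and 8155 under ATRA and 7259, 7986 and 7525 under the combination. The untreated libraries were the highest, the DAC+ATRA libraries the lowest, and the DAC libraries lay between these groups without overlap with either. By limma with Benjamini-Hochberg adjustment the log2 fold change was -0.52 (SE 0.09, adjusted p 8.25e-05) with DAC+ATRA, and it passed in every setting. With DAC it was -0.24 (SE 0.09, adjusted p 0.0432) (limma, Benjamini-Hochberg), short of the threshold, but it passed under the other 4 scalings, with values down to -0.44, and without ATRA library 9 (adjusted p 0.00341, limma, Benjamini-Hochberg).

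UQCRC1 is a core protein on the matrix side of complex III, and its row is a transcript with a retained intron (ENST00000480561, chr3:48599034-48600841, minus strand). Its normalized reads were 79.04, 111 and 86.8 in the untreated libraries, 45.4, 28.3 and 42.8 under DAC, 81.3, 110.1 and 109.9 under ATRA and 33.5, 36.8 and 39.5 under the combination. Each of the 6 libraries given DAC was below each of the 6 others. UQCRC1 had a log2 fold change of -1.24 (SE 0.21, adjusted p 4.11e-05) under DAC, 0.12 (SE 0.21, adjusted p 0.772) under ATRA and -1.30 (SE 0.21, adjusted p 1.89e-05) under the combination (limma, Benjamini-Hochberg). The calls with DAC and with DAC+ATRA passed in every setting in which the row was tested. Its promoter, printed above, starts upstream of the counted row, which begins within the gene.

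UQCRB, a small subunit next to the ubiquinone site, went the other way on its coding row, with normalized reads of 577, 472 and 477 in the untreated libraries, 543, 562 and 599 under DAC, 703, 634 and 540.2 under ATRA and 684, 664 and 732 under the combination. The DAC+ATRA libraries were above all untreated and DAC libraries, and overlapped with the ATRA libraries. Under the combination it changed by 0.45 (SE 0.12, adjusted p 0.00236) on the log2 scale by limma with Benjamini-Hochberg adjustment, or 0.25 relative to all transcripts, and it passed in 4 of 5 scalings. It was lost with library size scaling and without untreated library 2 or 3 or DAC+ATRA library 12 (adjusted p 0.0146 to 0.0177), by limma with Benjamini-Hochberg adjustment. The retained-intron row of the same gene fell with DAC, with a log2 fold change of -0.90 and an adjusted p of 0.00478 in the limma fit of all transcripts with Benjamini-Hochberg adjustment, while the coding row was at 0.16 there. With other scalings the coding row was as low as -0.04 with DAC.

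UQCRH, the hinge subunit, and UQCRHL, a near copy of it, were both counted. UQCRH, on a retained-intron row, had normalized reads of 70.8, 68.3 and 77.6 in the untreated libraries, 35.7, 36.05 and 42.8 under DAC, 60.2, 49.2 and 54.1 under ATRA and 47.9, 36.8 and 43.3 under the combination. UQCRHL, with a single coding row, had 894, 959 and 969 in the untreated libraries, 836, 719 and 804 under DAC, 918, 978 and 777 under ATRA and 729, 711 and 646 under the combination. For both, the DAC and DAC+ATRA libraries were below the untreated ones without overlap. UQCRH fell by 0.90 with DAC and by 0.75 with DAC+ATRA on the log2 scale, with adjusted p-values of 0.000329 and 0.00154 (limma, Benjamini-Hochberg). UQCRHL was at -0.26 (SE 0.11, adjusted p 0.0479) and -0.44 (SE 0.11, adjusted p 0.00162) (limma, Benjamini-Hochberg), of which only the second passed. The first passed under the other 4 scalings, with values down to -0.46. The DAC+ATRA call was lost for UQCRH without untreated library 3 or DAC+ATRA library 11 (adjusted p 0.0101 to 0.0116) and for UQCRHL without DAC+ATRA library 12 (adjusted p 0.0129), by limma with Benjamini-Hochberg adjustment. Since the 2 sequences are near copies, reads of the one may have been counted for the other. UQCRQ, another small subunit, passed in no comparison under the deposited size factors with all libraries, but in 3 of 5 scalings with DAC and in 4 of 5 with DAC+ATRA. It also passed with DAC without DAC library 4 (-1.41, adjusted p 0.00423) and with DAC+ATRA without DAC library 5 or DAC+ATRA library 12 (-1.07 and -1.27, adjusted p 0.00350 and 0.00926), by limma with Benjamini-Hochberg adjustment.

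Complex IV reduces oxygen to water, and 5 of its 12 tested rows are coding transcripts. Only 12 of its 19 members were tested, of which 2 were lower with DAC, 2 were lower with DAC+ATRA and 0 were higher in either comparison by limma. Beside these stand 8.82% and 14.3% of all transcripts tested as lower, and 30.6% and 32.5% as higher. At an unadjusted p under 0.05 higher members numbered 2 with DAC and 5 with DAC+ATRA over all complexes. The median log2 fold change of complex IV was -0.44 (DAC), -0.07 (ATRA) and -0.24 (DAC+ATRA), or -0.66, -0.07 and -0.44 relative to all transcripts. COX8A, the smallest subunit, has a single coding row and held 91.9% of the values of the complex, with normalized reads of 6264, 6921 and 6548 in the untreated libraries, 7371, 5818 and 7180.1 under DAC, 8309.5, 9283 and 6207 under ATRA and 6436, 6531 and 5873 under the combination. All groups overlapped with the untreated group, and ATRA libraries 7 and 8 were the highest. Its log2 fold change was 0.04 (SE 0.12, adjusted p 0.812) under DAC, 0.25 (SE 0.12, adjusted p 0.198) under ATRA and -0.07 (SE 0.12, adjusted p 0.661) under the combination (limma, Benjamini-Hochberg), and that with DAC changed sign under other scalings, to as low as -0.16. Without ATRA library 9 the log2 fold change with ATRA was 0.42 and passed (adjusted p 0.00316, limma, Benjamini-Hochberg).

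COX4I1, the widely used isoform of subunit 4, was represented by a retained-intron row (ENST00000569997, chr16:85803057-85807002, plus strand). It had normalized reads of 254, 304 and 264 in the untreated libraries, 155, 143 and 174 under DAC, 249, 229 and 306 under ATRA and 141, 129 and 142 under the combination. The 6 libraries given DAC were below the 6 others, and the DAC+ATRA libraries were below the DAC libraries by a narrow gap. Its log2 fold change was -0.80 (SE 0.14, adjusted p 5.64e-05) with DAC and -0.99 (SE 0.14, adjusted p 3.15e-06) with DAC+ATRA (limma, Benjamini-Hochberg), past the threshold in every setting in which the row was tested. COX7A2, on a retained-intron row, had normalized reads of 41.4, 38.2 and 41.6 in the untreated libraries, 19.5, 27.3 and 19.9 under DAC, 43.3, 27.3 and 31.6 under ATRA and 32.5, 16.8 and 27.2 under the combination. The libraries given DAC were below the untreated ones without overlap. With DAC it changed by -0.85 (SE 0.26, adjusted p 0.00959) in limma with Benjamini-Hochberg adjustment, the largest fall of complex IV in this comparison. That call was lost without untreated library 1, 2 or 3, DAC library 4 or 6 or DAC+ATRA library 12 (adjusted p 0.0114 to 0.0363), by limma with Benjamini-Hochberg adjustment. It was also lost without the filter, with a pseudocount of 0.1, with rows summed and on the coding row of the gene, which was at -0.20 (adjusted p 0.702, limma, Benjamini-Hochberg).

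**Figure D2:**
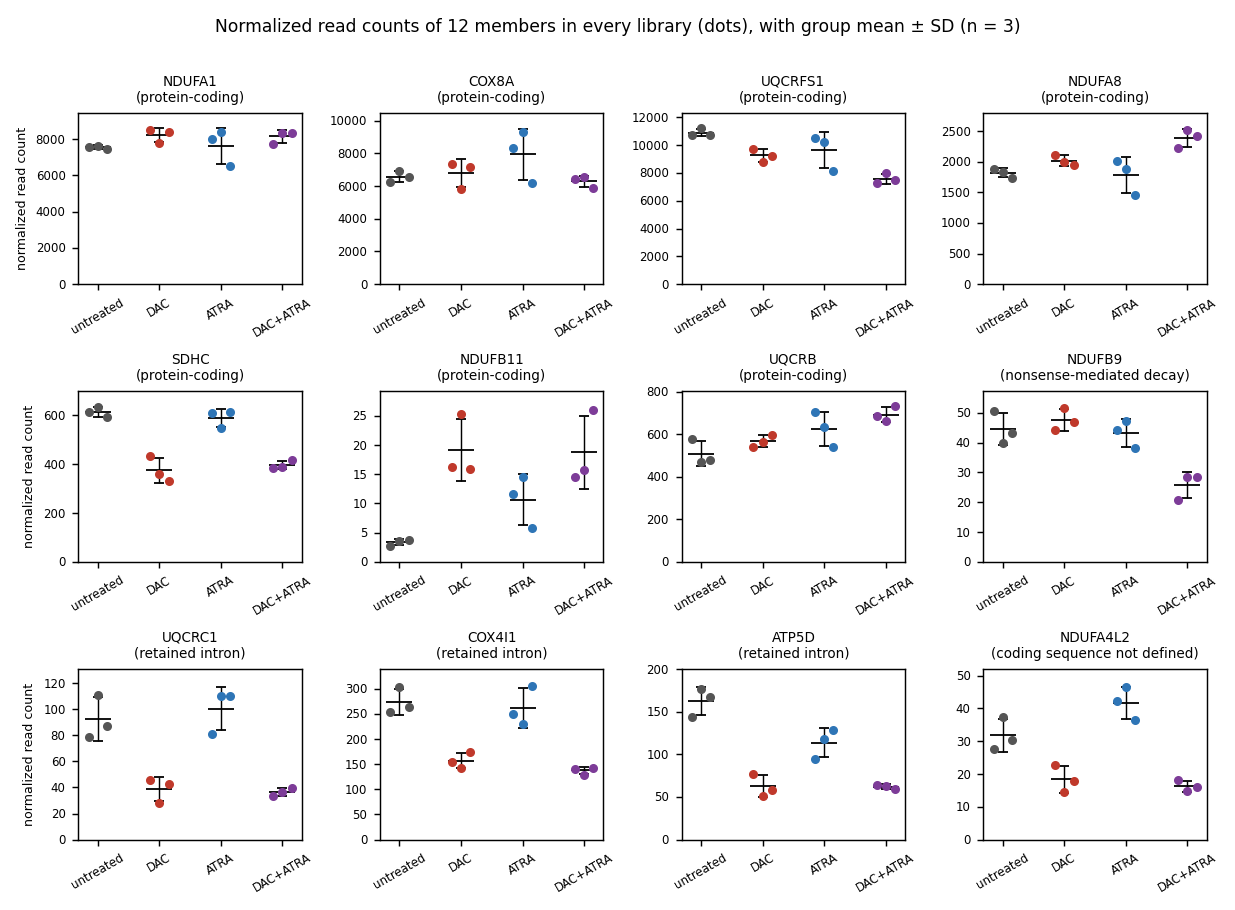
Normalized reads (y axis, linear from 0) of 12 members in each of the 12 libraries, by group (x axis), with the mean and SD of 3 libraries per group and the type of the counted transcript in each title. UQCRC1, COX4I1, ATP5D and SDHC are lower in all 6 libraries given DAC than in the 3 untreated ones, NDUFB11 is higher, and COX8A overlaps between all groups.

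Complex V makes ATP. With DAC 7 of its 17 tested members were lower and with DAC+ATRA 6, beside 8.82% and 14.3% of all transcripts tested, and 0 were higher in either comparison by limma, beside 30.6% and 32.5%. Only 7 of these 17 rows are coding transcripts, and 8 retain an intron. Of all retained-intron transcripts 14.9% were lower with DAC and 18.1% with DAC+ATRA, in the fit of transcripts of any type. Of the 17, 15 were below 0 with DAC and 14 with DAC+ATRA, and the median log2 fold change was -0.42, -0.08 and -0.40 with DAC, ATRA and DAC+ATRA. Relative to all transcripts these medians were -0.64, -0.08 and -0.60. ATP5D, the delta subunit of the catalytic head, had the largest fall of all members with DAC, on a retained-intron row (ENST00000592624, chr19:1241768-1243354, plus strand). Its normalized reads were 144, 177 and 167 in the untreated libraries, 76.7, 51.6 and 58.8 under DAC, 95.04, 117 and 128 under ATRA and 64.2, 63.2 and 59.3 under the combination. The 6 libraries given DAC were the lowest, the untreated ones the highest, and the ATRA libraries lay between without overlap. Against untreated cells ATP5D was at -1.38 (SE 0.17, adjusted p 9.13e-07) under DAC, -0.52 (SE 0.17, adjusted p 0.0466) under ATRA and -1.37 (SE 0.17, adjusted p 8.30e-07) under the combination on the log2 scale (limma, Benjamini-Hochberg), so that the ATRA value missed the threshold. The other 2 passed in every setting in which the row was tested.

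The catalytic head also holds the alpha and beta subunits, ATP5A1 and ATP5B. ATP5B, on a row without a defined coding sequence, had normalized reads of 104, 136 and 119 in the untreated libraries, 91.9, 57.5 and 57.8 under DAC, 127, 111 and 106 under ATRA and 75.04, 63.2 and 74.1 under the combination. ATP5A1, on a coding row, had 35.8, 25.5 and 24.01 in the untreated libraries, 31.3, 38.97 and 49.8 under DAC, 35.9, 36.4 and 24.1 under ATRA and 32.5, 35.8 and 29.7 under the combination. The libraries given DAC were below the untreated ones for ATP5B, whereas all groups overlapped for ATP5A1. ATP5B changed by -0.81 (SE 0.18, adjusted p 0.000995) with DAC and -0.74 (SE 0.18, adjusted p 0.00178) with DAC+ATRA (limma, Benjamini-Hochberg), and the second call was lost without untreated library 2 or DAC+ATRA library 11 (adjusted p 0.0119 to 0.0146), by limma with Benjamini-Hochberg adjustment. For ATP5A1 the log2 fold change with DAC was 0.48 (SE 0.24, adjusted p 0.108) on the coding row by limma with Benjamini-Hochberg adjustment. In the fit of all transcripts its retained-intron row was at -0.73 with DAC (adjusted p 0.0225, limma, Benjamini-Hochberg). With DAC+ATRA that row was at -0.88 and passed (adjusted p 0.00566, limma, Benjamini-Hochberg), while the coding row was at 0.21.

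ATP5S, which had the most reads among the ATP5 symbols, encodes a protein that is not a structural subunit, and 0 bases of its row are found in no other annotated transcript. It had normalized reads of 589, 524 and 575 in the untreated libraries, 442, 427 and 402 under DAC, 530.1, 533 and 510.2 under ATRA and 417, 443 and 442 under the combination. The 6 libraries given DAC were below the 6 others. Its log2 fold change was -0.41 (SE 0.10, adjusted p 0.00192) with DAC and -0.37 (SE 0.10, adjusted p 0.00335) with DAC+ATRA (limma, Benjamini-Hochberg), and these calls were lost without untreated library 1 or 3 or DAC library 6 (adjusted p 0.0107 to 0.0118) and without untreated library 1 or 3 or DAC+ATRA library 10 (adjusted p 0.0161 to 0.0185), respectively, by limma with Benjamini-Hochberg adjustment. ATP5H, of the peripheral stalk, had normalized reads of 108, 117 and 146 in the untreated libraries, 79.99, 67.2 and 74.7 under DAC, 89.8, 111 and 157 under ATRA and 71.4, 61.1 and 63.03 under the combination on a retained-intron row. The libraries given DAC were below all others. It changed by -0.72 (SE 0.19, adjusted p 0.00304) with DAC and -0.90 (SE 0.19, adjusted p 0.000355) with DAC+ATRA (limma, Benjamini-Hochberg), and the first call was lost without untreated library 3 or DAC library 5 (adjusted p 0.0153 to 0.0258), by limma with Benjamini-Hochberg adjustment. ATP5G1 and ATP5G3, which encode the same ring subunit, also fell in both comparisons, with log2 fold changes from -0.50 to -0.69. The ATP5G1 row retains an intron, and its calls were lost on the coding row, at -0.28 with DAC (adjusted p 0.614) and -0.97 with DAC+ATRA (adjusted p 0.0611), by limma with Benjamini-Hochberg adjustment. Also lower was ATP5O, of the stalk, with DAC (-0.73). With DAC the call of ATP5G3 was lost without untreated library 1 or 2, DAC library 4 or 6 or DAC+ATRA library 10 (adjusted p 0.0136 to 0.0642) and that of ATP5O without untreated library 1 or 2 or DAC library 5 (adjusted p 0.0104 to 0.0171) (limma, Benjamini-Hochberg).

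Summed over all members of a complex under the deposited size factors, the values of complexes I to IV came mostly from the most abundant row. The sum of complex II with DAC was 62.1% of its untreated mean and that of complex V 70.1%, whereas complex I was at 101%, complex III at 86.2% and complex IV at 100.01%. With DAC+ATRA the percentages were 102, 64.1, 73.7, 93.2 and 68.4 for complexes I to V, and with ATRA 99.3, 94.4, 90.8, 118 and 90.2. The sum of complex II was 721, 756 and 689.9 in the untreated libraries, 510.2, 440.3 and 394 with DAC, 713, 643 and 689 with ATRA and 462, 443 and 484 with DAC+ATRA. These sums were not tested, and SDHC gave 85.4% of that of complex II. In complex I NDUFA1 gave 58.6% and in complex III UQCRFS1 82.7%. The sum of complex I did not follow NDUFA1 alone. NDUFA1 was above the untreated libraries in every library given DAC, whereas the sum overlapped with them. In complex V no row held more than the 31.6% of ATP5S, and its sum was 1846 to 1925 in untreated libraries, 1242 to 1396 with DAC, 1641 to 1737 with ATRA and 1193 to 1341 with DAC+ATRA.

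**Figure D3:**
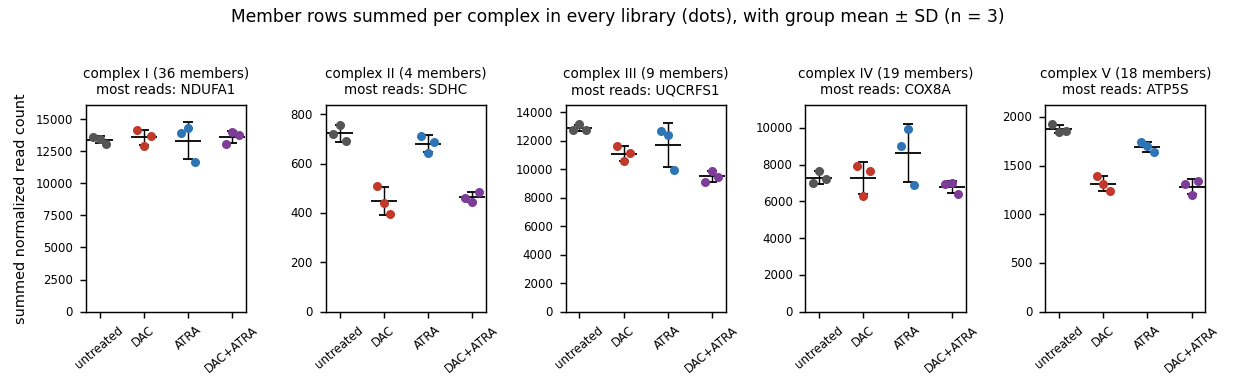
Member rows summed per complex (y axis, normalized reads, linear from 0) in each of the 12 libraries, by group (x axis), with the mean and SD of 3 libraries. For complexes II and V all 6 libraries given DAC lie below the other 6, whereas complexes I and IV overlap between groups.

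The combination was then compared with each single agent, to see what ATRA adds to DAC and DAC to ATRA. Against DAC alone, limma called 1 member lower with DAC+ATRA, NDUFB9, and 0 higher, beside 5.25% and 6.05% of all transcripts tested. At an unadjusted p under 0.05 the counts were 4 and 4, and higher members numbered 2 by edgeR and 1 by DESeq2. The count of lower members was 3 without ATRA library 9, which added UQCRFS1 (-0.29, adjusted p 0.00205) and NDUFS6 (-0.44, adjusted p 0.00462) by limma with Benjamini-Hochberg adjustment. It was 0 without DAC library 5, DAC library 6 or DAC+ATRA library 10.

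NDUFB9 is an accessory subunit of complex I, and its most abundant row is an annotated target of nonsense-mediated decay. Its normalized reads were 50.5, 40.1 and 43.4 in the untreated libraries, 44.3, 51.6 and 46.8 under DAC, 44.4, 47.3 and 38.3 under ATRA and 20.8, 28.4 and 28.4 under the combination. The 3 DAC+ATRA libraries were below the 9 others, among which the groups overlapped. With the combination NDUFB9 was at -0.87 (SE 0.20, adjusted p 0.00414) against DAC, -0.73 (SE 0.20, adjusted p 0.00575) against ATRA and -0.77 (SE 0.20, adjusted p 0.00284) against untreated cells (limma, Benjamini-Hochberg). The call against DAC was lost without DAC library 5 or 6 or DAC+ATRA library 10 (adjusted p 0.0128 to 0.0323), that against ATRA without ATRA library 7 or 8 or DAC+ATRA library 10 (adjusted p 0.0187 to 0.0366) and that against untreated cells without untreated library 1 or DAC+ATRA library 10 (adjusted p 0.0175 to 0.0201), all by limma with Benjamini-Hochberg adjustment. The call against DAC was also lost with DESeq2, and it and the call against ATRA with only the groups compared. Without the filter on low values all 3 calls were lost at unchanged log2 fold changes. With rows of the gene summed they were lost as well, at -0.33 against DAC, -0.04 against ATRA and -0.17 against untreated cells.

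Against ATRA alone, 12 members were lower with DAC+ATRA and 1 was higher, beside 8.93% and 25.8% of all transcripts tested. Under the other 4 scalings 19 to 21 members were lower, while lower calls among all transcripts rose from 808 to between 1127 and 1266. With the coding row of each member 4 were lower. The medians were -0.34 for the members and 0.16 for all transcripts, a difference of -0.50, and under other scalings the median of all transcripts was 0.03 to 0.07 and the difference -0.48 to -0.49. Of all calls 74.3% were higher under the deposited size factors and 62.4% to 66.1% under other scalings. By complex the lower members were 3 of complex I, 1 of complex II, 2 of complex III, 2 of complex IV and 4 of complex V. The higher member was NDUFA8, with 0.43 (SE 0.11, adjusted p 0.00277) by limma with Benjamini-Hochberg adjustment, which was lost without DAC+ATRA library 11 or 12 (adjusted p 0.0133 to 0.0182) by limma with Benjamini-Hochberg adjustment. The largest falls past the threshold were UQCRC1 at -1.42, NDUFA4L2 at -1.30, COX4I1 at -0.91, ATP5D at -0.85 and ATP5H at -0.83. Their adjusted p-values were 8.71e-06, 0.000122, 1.17e-05, 0.000369 and 0.00111 (limma, Benjamini-Hochberg). In each of these 5 members the DAC+ATRA libraries were below all ATRA libraries. UQCRQ was at -1.04 but missed the threshold (adjusted p 0.0194, limma, Benjamini-Hochberg). SDHC and NDUFV3 were the other 2 members that passed here in every setting. Besides NDUFB9 and NDUFA8, the calls lost here when 1 library was left out were UQCRFS1 without untreated library 1, 2 or 3, ATRA library 7 or 8 or DAC+ATRA library 10, 11 or 12 (adjusted p 0.0102 to 0.0354), ATP5G3 without untreated library 1 or 2, DAC library 4, ATRA library 7 or 8 or DAC+ATRA library 10 or 11 (adjusted p 0.0105 to 0.0612) and ATP5B without ATRA library 7 or 8 or DAC+ATRA library 10, 11 or 12 (adjusted p 0.01002 to 0.0260), by limma with Benjamini-Hochberg adjustment. Without ATRA library 9 the count of lower members was 16, with COX8A (-0.49), NDUFS6 (-0.67), NDUFV1 (-0.60) and UQCRHL (-0.45) gained. Without DAC library 5 NDUFV1 (-0.50), UQCRHL (-0.35) and UQCRQ (-1.04) passed, and without DAC+ATRA library 10 NDUFV1 (-0.60).

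The DAC x ATRA interaction asks whether the log2 fold change of the combination differs from the sum of those of the single agents. Limma called 0 of the 66 members, beside 2.45% of all transcripts tested, and the smallest adjusted p was 0.119 (Benjamini-Hochberg), for NDUFB9 at -0.82. At an unadjusted p under 0.05 there were 2 positive and 2 negative members, and edgeR and DESeq2 called 0. Without ATRA library 9, COX8A passed with an interaction of -0.52 (adjusted p 0.00988, limma, Benjamini-Hochberg). The median interaction of the members was 0.05 and that of all transcripts -0.06. A missed threshold does not show that the effects of DAC and ATRA on these members add up.

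Because many member rows are not coding transcripts, the rows were also compared by type in the fit of all 19373 transcripts that passed the filter. The member symbols had 53 tested coding rows, from 43 genes, and 40 tested retained-intron rows, from 29 genes. Of the coding rows 6 (11.3%) were lower with DAC, beside 8.73% of all 8784 coding transcripts, and of the retained-intron rows 15 (37.5%), beside 14.9% of all 4386 such transcripts. The median log2 fold change with DAC was -0.24 for coding rows of members and 0.22 for all coding transcripts, and -0.54 for retained-intron rows of members and -0.21 for all transcripts of that type. With DAC+ATRA 9 coding rows (17.0%) were lower, beside 14.3%, and 12 of the 40 retained-intron rows, beside 18.1%. So among coding rows the share of lower calls was close to that of all coding transcripts, and that of retained-intron rows exceeded its background by more. By median the order was reversed, and the coding rows lay further below their background in both comparisons. With DAC+ATRA the medians were -0.21 for coding rows of members and 0.20 for all coding transcripts. For retained-intron rows they were -0.43 and -0.19. The difference between the row types was not tested. Higher calls among the coding rows were 1 with DAC and 3 with DAC+ATRA, or 1.89% and 5.66%, beside 30.7% and 32.7% of all coding transcripts. Among the retained-intron rows 0 were higher in either comparison by limma, beside 9.85% and 14.5% of all transcripts of that type.

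For 13 genes a coding row and a retained-intron row could be set side by side. With DAC the intron row was below the coding row in 8 of them, with a median difference of -0.17, and with DAC+ATRA in 7, with -0.08. With DAC 1 of the coding rows and 4 of the intron rows passed the threshold. NDUFA10, an accessory subunit of complex I, has an intron row with 0 bases found in no other annotated transcript. Its coding row was at 0.03 with DAC (adjusted p 0.876) and its intron row at -0.56 (adjusted p 0.000271), both by limma with Benjamini-Hochberg adjustment. ATP5G3 showed the opposite order of calls, with -0.50 (adjusted p 0.00767) on the coding row and -0.67 (adjusted p 0.0338) on the intron row, by limma with Benjamini-Hochberg adjustment. Whether the intron rows measure unspliced RNA of the same gene or another transcript was not tested.

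**Figure D4:**
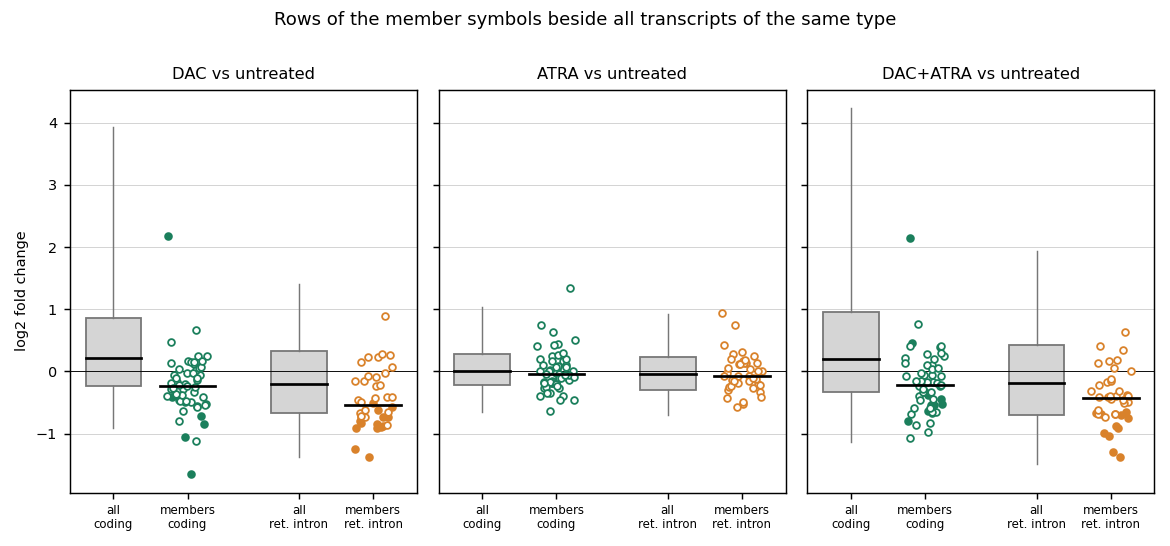
Log2 fold change (y axis) of coding and retained-intron rows of the member symbols (points, filled where past the threshold, with their median as a line) beside all transcripts of the same type (boxes: median and quartiles; whiskers: 5th to 95th percentile) for DAC, ATRA and DAC+ATRA against untreated cells. With DAC the median of the member rows is -0.24 for coding and -0.54 for retained-intron rows, each below the box median of its type.

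Some complex IV and V subunits, and UQCRH, have isoforms that are restricted to certain tissues or are near copies. COX6A2, of heart and muscle, and COX7B2 and COX8C, of testis, had no read in any library. COX4I2, the lung isoform of subunit 4, had 1 read in untreated library 2, 4 reads in DAC library 6 and 6 reads with DAC+ATRA. COX7A1, of heart and muscle, had 3 reads in all, 1 in each DAC+ATRA library, and ATP5L2, a copy of ATP5L, had 0 to 1.99 normalized reads. The counted row of COX6B2 has no defined coding sequence (ENST00000589879, chr19:55351757-55353394, minus strand) and begins downstream of the promoter printed above. It had no read in the untreated and ATRA libraries. With DAC it had 7.57, 1.95 and 6.97 normalized reads, from 16 reads. With DAC+ATRA it had 13.6, 7.37 and 12.4, from 32 reads. All 6 libraries given DAC had reads and the other 6 had none. Against a floor of 3 reads per library this is at least 2.00-fold and at least 4.03-fold higher than in untreated cells. DAC library 5 held 2 of these reads, under that floor, and the member did not reach the filter of the main fit. Without that filter its log2 fold change was 2.55 with DAC (adjusted p 0.000185) and 3.56 with DAC+ATRA (adjusted p 1.25e-07) (limma, Benjamini-Hochberg). The untreated libraries are all at 0 and so show no spread, and the size of these 2 values depends on the added pseudocount.

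COX6B1, the widely used partner of COX6B2, had normalized reads of 25.7, 20.03 and 9.24 in the untreated libraries, 23.8, 17.5 and 25.9 under DAC, 12.7, 26.4 and 10.8 under ATRA and 17.2, 21.1 and 18.5 under the combination. The groups overlapped, and the log2 fold change was 0.37 (SE 0.35, adjusted p 0.403) with DAC and 0.15 (SE 0.35, adjusted p 0.739) with DAC+ATRA (limma, Benjamini-Hochberg), the second of which changed sign under other scalings, to as low as -0.09. NDUFA4L2, a homologue of NDUFA4 known for its induction in hypoxia, had normalized reads of 27.6, 37.3 and 30.5 in the untreated libraries, 22.7, 14.6 and 17.9 under DAC, 42.2, 46.4 and 36.6 under ATRA and 18.1, 14.7 and 16.1 under the combination on a row without a defined coding sequence. The libraries given DAC were below all others, and the ATRA libraries were the highest though they overlapped with the untreated ones. Its log2 fold change was -0.77 (SE 0.24, adjusted p 0.0108) with DAC, -0.92 (SE 0.24, adjusted p 0.00257) with DAC+ATRA and -1.30 (SE 0.24, adjusted p 0.000122) for DAC+ATRA against ATRA (limma, Benjamini-Hochberg). The first missed the threshold but passed under the other 4 scalings and without DAC library 4 (adjusted p 0.00566), the second was lost without untreated library 2 or DAC+ATRA library 11 (adjusted p 0.0123 to 0.0189), and the last passed in every setting, by limma with Benjamini-Hochberg adjustment. NDUFA4 had normalized reads of 35.8, 29.1 and 31.4 in the untreated libraries, 32.4, 14.6 and 24.9 under DAC, 52.8, 30.9 and 35.8 under ATRA and 37.1, 37.9 and 35.8 under the combination. Its groups overlapped with the untreated one, and it passed in no comparison.

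The remaining partners stayed short of the threshold under the deposited size factors with all libraries. COX7B had normalized reads of 149, 147 and 139 in the untreated libraries, 133, 115 and 72.7 under DAC, 132, 160.2 and 126 under ATRA and 93.1, 109 and 111 under the combination on a row not matched to the annotation, with the libraries given DAC below the untreated ones and log2 fold changes of -0.48 (SE 0.18, adjusted p 0.0355) and -0.47 (SE 0.18, adjusted p 0.0344) with DAC and DAC+ATRA (limma, Benjamini-Hochberg). COX7B passed in 4 of 5 scalings in both comparisons, with values down to -0.65 and -0.61. It also passed with DAC without DAC library 4 (adjusted p 0.00804) and with DAC+ATRA without DAC library 6 (adjusted p 0.00930), by limma with Benjamini-Hochberg adjustment. COX6A1 had normalized reads of 18.4, 10.9 and 10.2 in the untreated libraries, 11.9, 24.4 and 11.95 under DAC, 8.45, 11.8 and 11.7 under ATRA and 9.04, 14.7 and 4.94 under the combination. ATP5L had 30.3, 29.1 and 33.2 in the untreated libraries, 28.1, 35.1 and 21.9 under DAC, 44.4, 30.9 and 25.8 under ATRA and 29.8, 14.7 and 45.7 under the combination. All treated groups overlapped with the untreated group for both, and only for COX6A1 were the DAC libraries above the ATRA libraries, by a narrow gap.

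Other genes of the pathway were compared under the deposited size factors only, in the fit of all 19373 transcripts with the most abundant row of each gene whatever its type. In that fit 22 members were lower and 3 higher with DAC+ATRA, against 16.1% lower and 25.5% higher among all transcripts, and 18 and 2 with DAC, against 11.3% and 22.2%. With ATRA 1.87% of all transcripts were lower and 5.11% higher. The 13 subunits encoded by mitochondrial DNA, the direct partners of the members, had a median log2 fold change of 0.02 with DAC and 0.00 with DAC+ATRA, with 2 higher and 0 lower with DAC by limma, and 1 higher and 1 lower with DAC+ATRA. MT-CYB, the cytochrome b of complex III, had normalized reads of 96876, 94084 and 83752 in the untreated libraries, 156771, 155003 and 142698 under DAC, 120975, 117649 and 90140.4 under ATRA and 142267, 151953 and 133802 under the combination. All libraries given DAC were above all untreated and ATRA libraries. Its log2 fold change was 0.73 (SE 0.09, adjusted p 3.45e-07) with DAC and 0.64 (SE 0.09, adjusted p 1.82e-06) with DAC+ATRA (limma, Benjamini-Hochberg). MT-CO1 was at 0.22 and 0.21, MT-ND4 at -0.13 and -0.24 and MT-ND2 at -0.12 and -0.29, of which only the last passed (adjusted p 0.00456, limma, Benjamini-Hochberg). Mitochondrial transcripts took 36.3% to 42.5% of the reads of a library.

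Assembly factors help build the complexes: of 37 tested 12 were lower and 1 higher with DAC, and 11 and 3 with DAC+ATRA. The lowest with DAC+ATRA were NDUFAF6 (-1.38) and UQCC1 (-1.14), and the highest TACO1 (1.06) and NDUFAF3 (0.72). The NDUFAF6 row has no defined coding sequence, and the TACO1 row retains an intron. TACO1 had 7.35, 10.9 and 6.46 normalized reads in the untreated libraries and passed the filter mainly through treated ones. Of 19 tested regulators of respiratory genes and of mitochondrial DNA, 9 were lower and 0 higher with DAC, 2 lower with ATRA, and 9 lower and 1 higher with DAC+ATRA. PPARGC1A, a coactivator of many respiratory genes, had normalized reads of 99.3, 115 and 99.7 in the untreated libraries, 52.97, 54.6 and 51.8 under DAC, 71.8, 47.3 and 56.6 under ATRA and 35.3, 28.4 and 45.7 under the combination. Each treated group was below the untreated one without overlap, and the combination was the lowest. It fell in each comparison, with log2 fold changes of -0.96 (SE 0.20, adjusted p 0.000283), -0.84 (SE 0.20, adjusted p 0.00446) and -1.52 (SE 0.20, adjusted p 4.27e-07) for DAC, ATRA and their combination (limma, Benjamini-Hochberg). SSBP1, which binds single-stranded mitochondrial DNA, was the second lowest regulator with DAC+ATRA at -1.24, on a retained-intron row. ESRRA, a nuclear receptor that works with PPARGC1A, was the highest at 0.88, followed by MTERF1 at 0.11, which did not pass.

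Mitochondrial ribosomal proteins, needed to make the subunits encoded by mitochondrial DNA, had 17 lower and 3 higher of 58 tested with DAC, 2 lower with ATRA, and 20 lower and 4 higher with DAC+ATRA. MRPS27 (-1.84) and MRPL11 (-1.50) were the lowest with DAC+ATRA, and MRPL20 (1.26) and MRPL2 (1.07, not past the threshold) the highest. The rows of MRPS27 and MRPL20 retain an intron, and that of MRPL11 has no defined coding sequence. MRPL2 had 7.35, 3.64 and 3.69 normalized reads in the untreated libraries and passed the filter through treated libraries only. In the citric acid cycle, which supplies the NADH and succinate, 4 of 14 were lower with DAC and 5 with DAC+ATRA, and 0 were higher by limma. SUCLA2 (-1.25) and OGDH (-1.04) were its lowest and IDH3G (0.17) and MDH2 (0.16) its highest, and none of these passed. The SUCLA2 row was not matched to the annotation, and the IDH3G row has no defined coding sequence. Among 10 tested other subunits and carriers, 1 was lower with DAC, and 3 were lower and 1 higher with DAC+ATRA. DHODH (-1.71) and C14orf2 (-1.17), a subunit of complex V, were the lowest of these. GPD2 (0.74) and CYC1 (0.61, not past the threshold) were the highest, and the CYC1 row retains an intron.

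Glycolysis, the other source of ATP, had 3 higher and 1 lower of 18 tested with DAC, 1 higher with ATRA, and 3 higher and 6 lower with DAC+ATRA. HK3, a hexokinase of myeloid cells, was the highest with DAC+ATRA at 2.68, followed by SLC2A3 at 1.65. The SLC2A3 row retains an intron. It had 3.68, 5.46 and 2.77 normalized reads in the untreated libraries and passed the filter through treated libraries only. LDHB (-1.86) and GPI (-0.73) were the lowest. The LDHB row, 1 of 10 of that gene, had 14.7, 16.4 and 11.1 normalized reads in the untreated libraries. Under the combination it had 2.71, 2.11 and 4.94, near the value of 3 reads. With DAC the median log2 fold change was -0.38 for the members, -0.22 for assembly factors, -0.46 for regulators, -0.19 for mitochondrial ribosomal proteins, -0.42 for the citric acid cycle, -0.13 for other subunits and carriers, -0.19 for glycolysis and 0.05 for all transcripts. With DAC+ATRA these medians were -0.42, -0.11, -0.54, -0.39, -0.55, -0.04, -0.36 and 0.05 in the same order. A lower median than that of all transcripts was thus found in each of these nuclear lists and not in the members alone.

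**Figure D5:**
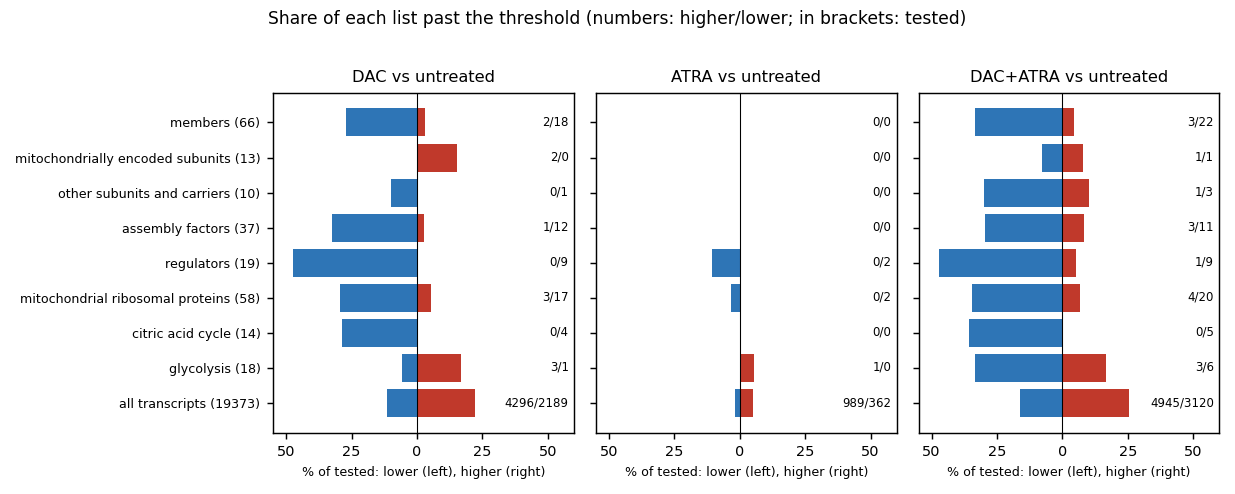
Share of each gene list (y axis, number of tested genes in brackets) past the threshold (x axis, percent of tested, lower to the left and higher to the right) with DAC, ATRA and DAC+ATRA against untreated cells in the fit of all transcripts. In the DAC panel the members have 18 lower and 2 higher of 66, whereas the 13 mitochondrially encoded subunits have 0 lower and 2 higher.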

How the data were processed

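RNA-seq libraries of U937 cells, 12 in 4 groups of 3, had been aligned to hg38 with STAR, counted with HTSeq and normalized with DESeq2 by the authors; the tool versions, annotation release, counting mode and strand setting are not stated. The deposited signal values are the authors' reads per transcript divided by 1 size factor per library, and 100% of them became whole reads within 0.001 read once that factor was undone. Depth was 8042435 to 10683593 reads per library, and 3 reads equal 2.50 to 3.71 normalized reads. The columns carry running numbers, so groups are known and replicate numbers are not.

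The 86 members, by the symbol rule of the report, were each represented by the row with the highest mean over 12 libraries. Log2(normalized reads + 1) was fitted with limma 3.58.1 in R 4.3.3 (lmFit, eBayes with trend and robust) as 4 group means. The fit held 9045 transcripts with at least 10 normalized reads in at least 3 libraries. These are protein-coding in GENCODE 44, unmatched rows with the symbol of a protein-coding gene, or member rows. Adjustment was by Benjamini-Hochberg, with a threshold of adjusted p under 0.01. The plan named edgeR for whole counts, deposited or recovered, and limma for values already divided by size factors. Both conditions held here, since whole reads could be recovered. Limma was used as the main test and edgeR as an alternative. On the recovered reads the edgeR 4.0.16 quasi-likelihood test with TMM called 1 member higher and 30 lower with DAC, and 0 and 0 with ATRA. For DAC+ATRA it called 3 and 27 against untreated cells, 2 and 1 against DAC and 1 and 21 against ATRA. The interaction had 0 members. Among all 9045 transcripts this test called 2297 higher and 1611 lower with DAC, and 600 and 388 with ATRA. For DAC+ATRA these were 2645 and 1843 against untreated cells, 777 and 546 against DAC and 2168 and 1240 against ATRA. The interaction had 72 positive and 156 negative transcripts. DESeq2 1.42.0, other scalings, filters, pseudocounts and row choices, a threshold of 0.05 and leaving out each library were also tried, 25 alternatives in all. The pipeline was tested on simulated data. Tables were handled in Python 3.11.15.

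Members named with values in every library were, per complex and comparison with untreated cells, the largest rise and fall past the threshold, the most abundant member of each complex, up to 5 members past the threshold against each single agent or for the interaction, tissue isoforms with their partners, and the catalytic or core subunits SDHA, SDHB, NDUFS1, NDUFV1, UQCRC1, UQCRFS1, COX4I1, ATP5A1 and ATP5B; of other lists, the 2 highest and 2 lowest genes with DAC+ATRA. Further genes were named after their values were seen. The members and lists were chosen with earlier results of these data known. Rows of the 20 members below the filter were not part of the main fit.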

Additional observations from a re-analysis of the deposited data

How the results depend on the processing

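Among the 25 alternatives, no member that had passed changed direction except NDUFA10, which went from -0.56 with DAC to 0.03 on the coding-transcript row. Leaving out each library in turn gave 1 to 2 members higher and 11 to 20 lower with DAC, 0 to 2 and 0 with ATRA, 1 to 4 and 15 to 24 with DAC+ATRA, 0 and 0 to 3 for DAC+ATRA against DAC, 0 to 1 and 8 to 16 against ATRA, and 0 to 1 for the interaction. Where only 2 libraries of a group were left, the spread pooled over all groups was used.

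With DAC, the 2 members higher became 1 with edgeR, DESeq2, library size scaling, size factors from protein-coding transcripts, at least 10 in every library, only the groups compared, a pseudocount of 0.1 and the coding-transcript row. The 18 lower became 30 with edgeR, 29 with size factors from protein-coding transcripts, 6 with the coding-transcript row and 28 at a threshold of 0.05. With the rows of a symbol summed, 20 members were lower and 2 higher. Lower calls among all transcripts went from 798 to 1611 with edgeR and 1484 with size factors from protein-coding transcripts. With ATRA the 0 higher became 1 at 0.05, and the 0 lower became 1 at 0.05 and with library size scaling. With DAC+ATRA the 3 higher became 5 at 0.05, and the 21 lower became 9 with the coding-transcript row. With the rows of a symbol summed, 21 were lower and 4 higher with DAC+ATRA.

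For DAC+ATRA against DAC, the 0 higher became 2 with edgeR and 1 with DESeq2. The 1 lower became 2 with library size scaling and with size factors from protein-coding transcripts, 3 at 0.05, and 0 with only the groups compared, with the rows of a symbol summed and with the coding-transcript row. Against ATRA, the 1 higher became 2 without a filter on low values and with rows summed, and 0 with only the groups compared. The 12 lower became 21 with edgeR, 20 with DESeq2, 19 with library size scaling and 21 with size factors from protein-coding transcripts. Lower calls among all transcripts were 808 in the main fit and 1127 to 1266 under these other scalings. The 12 lower became 4 with the coding-transcript row and 24 at 0.05. The causes were not tested, except that a threshold of 0.05 admits more members by construction and the coding-transcript row leaves 43 members tested.

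The coding-transcript row was chosen after seeing the data. Of the values of named members, 3704 kept their direction and side of the threshold, 105 no longer passed, 79 newly passed and 163 short of the threshold changed sign. The interaction could not be run with only the groups compared, since it uses all 4 groups. No paired analysis was possible because the columns carry running numbers and not the replicate numbers of the labels. Whether the 3 technical replicates per group were separate cultures is not stated.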
